A study of Saccharomyces cerevisiae with 8 samples.

Results

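The genes described here encode arginine biosynthesis and catabolism in Saccharomyces cerevisiae. They are 7 biosynthetic genes (ARG1, ARG2, ARG3, ARG4, ARG5,6, ARG8 and CPA1) and 2 catabolic genes (CAR1 and CAR2), 9 of the 7127 genes in the deposited count table, taken by name. They were selected on earlier results of these data, so the log2 fold changes of all 5 comparisons count as used in the choice, and their levels, changes and calls are a description without p-values. RNA was sequenced from CRN (MATa ade2 his3 ura3 ppn1Δ::CgTRP1, a deletion of a polyphosphatase gene) and from CRN/PPN2, the same strain with a centromeric pMB1 plasmid that expresses the polyphosphatase gene PPN2 constitutively. The labels name no empty plasmid in CRN, so the plasmid and PPN2 expression cannot be told apart. Each strain was grown to the late logarithmic stage in YPD, for 16 h, and in YPD with KOH at 20 mM, for 40 h in CRN and 25 h in CRN/PPN2, with 2 libraries per group.

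Yeast builds ornithine from glutamate through acetylated intermediates in the mitochondrion and converts it with carbamoyl phosphate and aspartate to arginine in the cytosol. Arginase, the product of CAR1, splits arginine into ornithine and urea, and the aminotransferase made from CAR2 takes ornithine towards proline and glutamate. Arg80, Arg81, Mcm1 and Arg82 together repress the biosynthetic genes and induce the catabolic genes when arginine is present, Gcn4 activates biosynthetic genes of many amino acids upon starvation, and Ume6 represses CAR1.

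The promoter letters searched were TGACTC, the core of the Gcn4 site, and GCCGCC, the core of the site that Ume6 binds, on both strands of the R64 genome sequence (RefSeq). In windows from 250 bases before to 50 bases after the start codon, TGACTC was present in 4 of 7 biosynthetic genes and in 7.98% of 6001 protein-coding genes. In the 500 bases before the start codon, a window added after the first search, it was present in 7 of 7, in CAR1 and CAR2, and in 12.7% of 6000 genes. GCCGCC was present in the shorter window of CAR1, in no biosynthetic gene and in 5.13% of all genes. A match is a description of letters, not a shown binding site, and the motifs do not overlap. The stretches below are shown because all 7 biosynthetic genes share the match. Capitals mark the letters searched, which ARG2 holds on the other strand so that its capitals are the reverse complement. Each stretch reads 5′ to 3′ on the strand of its gene. Where a gene had more than 1 match, the match followed by A is shown. The positions are chrX:306030-306059 (ARG2), chrV:295175-295204 (ARG5,6), chrXV:58567-58596 (ARG8), chrXV:882403-882432 (CPA1), chrX:268473-268502 (ARG3), chrXV:218854-218883 (ARG1), chrVIII:141564-141593 on the minus strand (ARG4) and chrXVI:339777-339806 (CAR1).
ARG2: gatcttcccatgGAGTCAtaagcacgttcg
ARG5,6: ttcttatccgaaTGACTCagtctacatcaa
ARG8: cagctcgctatgTGACTCacttaaagtaca
CPA1: tggaagggtgttTGACTCatcatcgcatcg
ARG3: agggtcacgtcgTGACTCatatgctttctt
ARG1: gtgattttttagTGACTCatgtcgcatttg
ARG4: ttagtagatgaaTGACTCactttttggata
CAR1: cacttagcggtaGCCGCCgaggggtctaaa

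The libraries held 3844316 to 5004823 counts, except the CRN/PPN2 libraries with KOH, which held 1559324 and 796548. PPN1 had 0 or 1 count per library. PPN2 had 206 to 220.0 CPM (counts scaled to the library total with TMM factors) in the 4 CRN libraries and 5997 to 6854 in the 4 CRN/PPN2 libraries. URA3, listed as mutant (ura3) in CRN, had 235 to 301 CPM in the 4 CRN libraries and 1155 to 1894 in the 4 CRN/PPN2 libraries. The strains thus also differ in URA3 RNA, which cannot be told apart from PPN2 expression, and its source was not tested. For CRN/PPN2 with KOH, cells were washed with sorbitol and went into Trizol LS without freezing, whereas the other 3 groups were frozen and passed through a French press. These 2 libraries thus differ from CRN with KOH in strain, time of harvest, lysis and depth, and from CRN/PPN2 in YPD in medium, time of harvest, lysis and depth, and these cannot be told apart in any value that uses them. In CRN, the medium and the time of harvest (16 h and 40 h) changed together and cannot be told apart either. The sources do not say that the replicates came from separate cultures, so tests measure the spread between these samples. All levels are shares of the sequenced RNA, so less RNA of a gene per cell cannot be told apart from more RNA of other genes.

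ARG2 encodes acetylglutamate synthase, which starts the pathway. It had 66.6 and 64.5 CPM in CRN in YPD, 44.4 and 37.9 in CRN with KOH, 51.1 and 49.2 in CRN/PPN2 in YPD, and 47.4 and 54.5 in CRN/PPN2 with KOH. The KOH libraries lay below the YPD libraries in CRN, and overlapped them in CRN/PPN2. ARG5,6 encodes a precursor that is cleaved into acetylglutamate kinase and acetylglutamyl-phosphate reductase. Its levels were 915 and 1038 CPM in CRN in YPD, 169 and 203 in CRN with KOH, 643 and 757 in CRN/PPN2 in YPD, and 163 and 187 in CRN/PPN2 with KOH. In YPD both CRN/PPN2 libraries were lower than both CRN libraries, and with KOH the strains overlapped. ARG8 encodes acetylornithine aminotransferase. It had 393 and 464 CPM in CRN in YPD, 98.3 and 110.3 in CRN with KOH, 304 and 376 in CRN/PPN2 in YPD, and 58.8 and 62.8 in CRN/PPN2 with KOH. None of these 4 groups overlapped for ARG8, and CRN/PPN2 was the lower strain in both media.

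CPA1 encodes a subunit of the arginine-specific carbamoyl phosphate synthetase. It had 563 and 628 CPM in CRN in YPD, 258 and 248 in CRN with KOH, 439 and 624 in CRN/PPN2 in YPD, and 339.7 and 473 in CRN/PPN2 with KOH. With KOH, both CRN/PPN2 libraries lay above both CRN libraries, while in CRN/PPN2 the media overlapped. ARG3 encodes ornithine carbamoyltransferase, which joins ornithine and carbamoyl phosphate. It had 546 and 593 CPM in CRN in YPD, 91.7 and 106 in CRN with KOH, 401 and 472 in CRN/PPN2 in YPD, and 34.2 and 36.8 in CRN/PPN2 with KOH. The levels of ARG3 fell into 4 separate ranges, lowest in CRN/PPN2 with KOH, where they came from 54 and 31 counts.

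ARG1 encodes argininosuccinate synthetase. Its levels were 1059 and 1341 CPM in CRN in YPD, 196 and 246 in CRN with KOH, 882 and 1179 in CRN/PPN2 in YPD, and 122 and 187 in CRN/PPN2 with KOH. The strains overlapped in YPD, but not with KOH. ARG4 encodes argininosuccinate lyase, which releases arginine. It had 649 and 678 CPM in CRN in YPD, 232 and 240.3 in CRN with KOH, 611 and 611 in CRN/PPN2 in YPD, and 260.0 and 432 in CRN/PPN2 with KOH. Like CPA1, ARG4 was higher in both CRN/PPN2 libraries than in both CRN libraries with KOH.

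CAR1 had 26.8 and 28.9 CPM in CRN in YPD, 48.4 and 50.4 in CRN with KOH, 18.6 and 21.2 in CRN/PPN2 in YPD, and 20.9 and 40.3 in CRN/PPN2 with KOH. The CRN libraries with KOH were the highest of the 8, and the CRN/PPN2 libraries with KOH differed from each other, at 33 and 34 counts. CAR2 had few counts, 15 and 21 in CRN in YPD, 20 and 51 in CRN with KOH, 17 and 28 in CRN/PPN2 in YPD, and 6 and 2 in CRN/PPN2 with KOH. It did not reach 10 CPM in 2 libraries and was not tested, so all counts of changed genes below are of 8 genes. No other gene of the RefSeq annotation overlapped any of the 9. The study counted reads on the Ensembl annotation, which was not checked for overlaps.

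**Figure D1:**
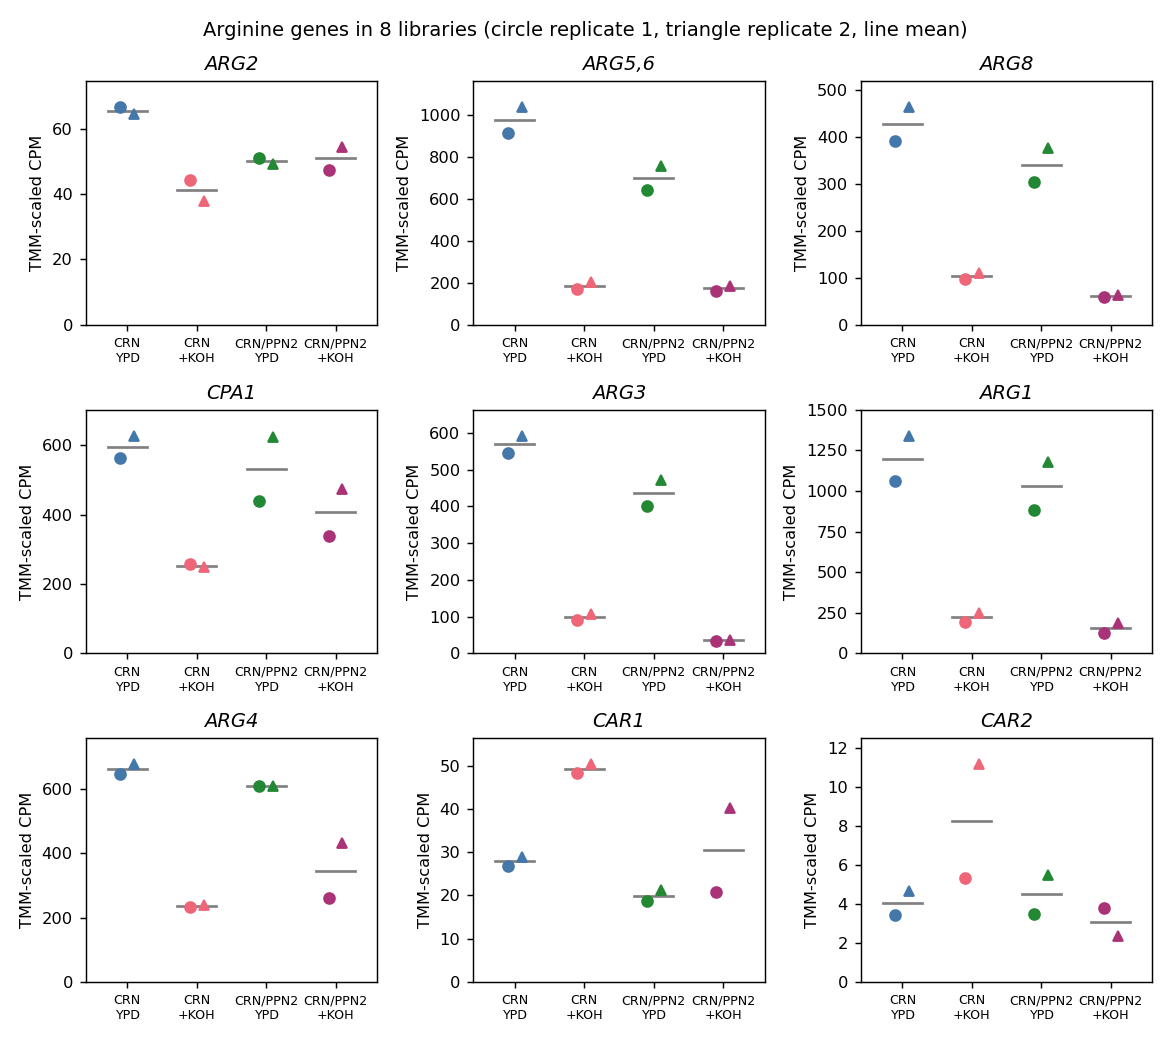
TMM-scaled CPM (vertical axes from 0) of the 9 arginine genes in the 4 groups, with circles for replicate 1, triangles for replicate 2 and lines for means. ARG3 was lowest in CRN/PPN2 with KOH (34.2 and 36.8 CPM), and CAR1 was highest in CRN with KOH (48.4 and 50.4 CPM).

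Per kilobase of coding length, the order of the genes changed between the groups. In CRN in YPD, ARG1 had the highest level (950.1 ± 158 CPM per kilobase, SD, n = 2), followed by ARG3 (560.0 ± 32.3). CPA1 (482 ± 36.9) and ARG4 (477 ± 14.9) overlapped, as did ARG5,6 (377 ± 33.8) and ARG8 (337 ± 39.7), while ARG2 (38.0 ± 0.878), CAR1 (27.8 ± 1.48) and CAR2 (3.16 ± 0.68) followed without overlap. CRN/PPN2 in YPD kept ARG1 at the top, at 816 ± 166 CPM per kilobase. In CRN with KOH the order began with CPA1 (205 ± 5.35), ARG1 (175 ± 28.1) and ARG4 (169.5 ± 4.35), of which the last 2 overlapped. In CRN/PPN2 with KOH it began with CPA1 (329 ± 76.3) and ARG4 (248 ± 87.2), which overlapped, and ARG3 had moved down to 34.9 ± 1.8, overlapping with CAR1 (30.5 ± 13.7).

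The comparison of KOH with YPD in CRN sets the parent strain after 40 h in the alkaline medium beside the same strain after 16 h in YPD. All 7 biosynthetic genes met the threshold as lower and CAR1 as higher, 8 of 8, while 15.1% of the 5430 genes tested met it (7.61% lower, 7.53% higher). The median log2 fold change of the 8 genes was -1.76, beside 0.014 over all genes. ARG3 had -2.53 (SE 0.12), ARG1 -2.44 (SE 0.13), ARG5,6 -2.39 (SE 0.13) and ARG8 -2.04 (SE 0.12), which are levels lower by 5.78-fold, 5.44-fold, 5.25-fold and 4.10-fold. Smaller falls were found in ARG4 (-1.49, SE 0.16), CPA1 (-1.23, SE 0.14) and ARG2 (-0.68, SE 0.14). CAR1 was higher by 0.82 (SE 0.17), or 1.77-fold. The KOH and YPD libraries did not overlap for 8 of 8 genes, 7 below and 1 above, as for 56.8% of all genes (26.1% below, 30.7% above). The call for ARG2 was lost without CRN in YPD replicate 2 or CRN with KOH replicate 2, and the call for CAR1 without CRN in YPD replicate 2 or CRN with KOH replicate 1. In a fit without a filter, the log2 fold change of CAR2 was 1.03 (SE 0.35) for KOH in CRN, -0.41 (SE 0.60) for KOH in CRN/PPN2, 0.16 (SE 0.38) between the strains in YPD and -1.28 (SE 0.55) between the strains with KOH.

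In CRN/PPN2, KOH was compared with YPD in the same way. Of the 8 genes, 6 were lower and 0 higher, while 54.7% of all genes met the threshold (25.5% lower, 29.2% higher). Their median log2 fold change was -1.43, beside -0.007 over all genes. ARG3 fell by 3.61 on the log2 scale (SE 0.16), a level 12.2-fold lower and the lowest log2 fold change of the 5430 genes. The values were -2.76 (SE 0.15) for ARG1, -2.46 (SE 0.15) for ARG8 and -2.00 (SE 0.14) for ARG5,6. The falls were smaller for ARG4 (-0.86, SE 0.16) and CPA1 (-0.39, SE 0.15). ARG2 had a log2 fold change of -0.01 (SE 0.17) and CAR1 of 0.52 (SE 0.25), and neither met the threshold. The media did not overlap for 5 of 8 genes, 5 below and 0 above, as for 69.8% of all genes (35.2% below, 34.6% above). The CPA1 call was lost in 4 of 16 alternatives, among them the fit with no replicate block, the 4 libraries alone, and the fits without CRN/PPN2 in YPD replicate 2 or CRN/PPN2 with KOH replicate 1.

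**Figure D2:**
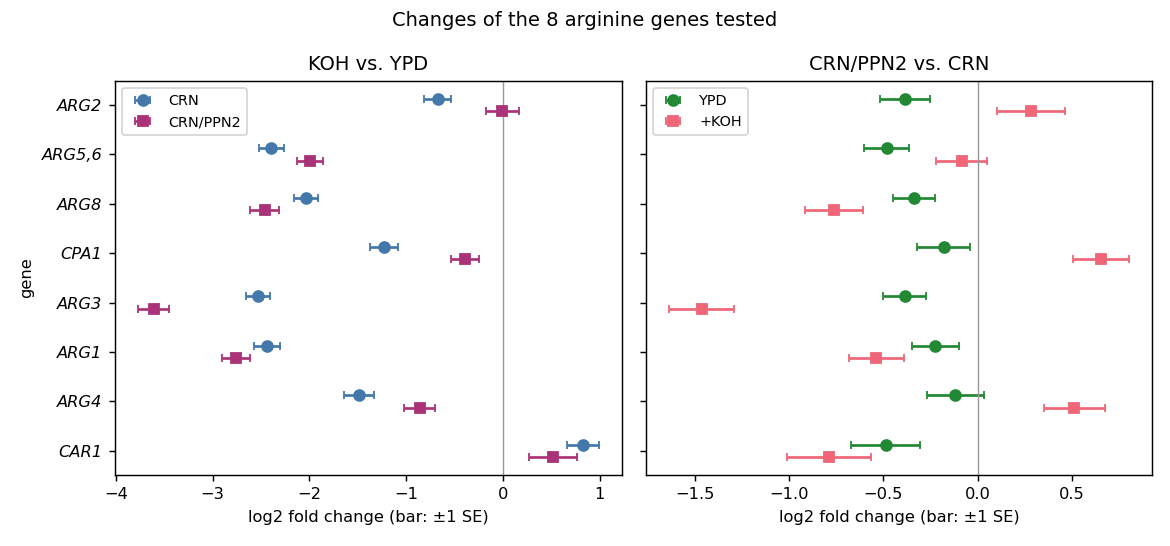
Log2 fold changes (horizontal axes, bars ±1 SE) of the 8 arginine genes tested, for KOH vs. YPD in each strain (left) and CRN/PPN2 vs. CRN in each medium (right). ARG3 had the lowest value with KOH in both strains (-2.53 and -3.61), and CPA1 and ARG4 lay above 0 between the strains with KOH (0.66 and 0.52).

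The strains were then compared within each medium, which shares libraries with the comparisons above. In YPD, 2 of 8 genes were lower in CRN/PPN2 and 0 higher, beside 6.5% of all genes (2.38% lower, 4.13% higher). These were ARG5,6 (-0.48, SE 0.12) and ARG3 (-0.39, SE 0.11). The other genes had log2 fold changes from -0.49 (CAR1) to -0.12 (ARG4), and 8 of 8 values were below 0, with a median of -0.36 beside 0.007 over all genes. This was not particular to the arginine genes. Of 30 genes for the synthesis of other amino acids, 30 had values below 0, with a median of -0.33. Among them 6 were lower and 0 higher, a count that changed with the processing. The strains did not overlap for 6 of 8 genes, 6 below and 0 above, as for 40.6% of all genes (19.6% below, 21% above). The number of genes called was 0 with no replicate block and 5 without both CRN/PPN2 libraries with KOH, an alternative chosen after seeing the data. Without single libraries it ranged from 0 (without CRN in YPD replicate 1 or 2, CRN with KOH replicate 1 or 2, or CRN/PPN2 in YPD replicate 1 or 2) to 5 (without CRN/PPN2 with KOH replicate 1 or 2).

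With KOH, CRN/PPN2 had 2 of 8 genes above CRN and 4 below, beside 30.8% and 25.9% of all genes. Together 6 of 8 met the threshold, beside 56.7% of all genes. CPA1 was higher by 0.66 (SE 0.15) and ARG4 by 0.52 (SE 0.16). ARG3 was lower, with -1.47 (SE 0.17), or 2.76-fold, followed by CAR1 (-0.79, SE 0.22), ARG8 (-0.76, SE 0.16) and ARG1 (-0.54, SE 0.15). ARG2 (0.28, SE 0.18) and ARG5,6 (-0.08, SE 0.14) did not meet the threshold. The strains did not overlap for 7 of 8 genes, 4 below and 3 above, as for 74.1% of all genes (35.8% below, 38.3% above). Leaving out CRN with KOH replicate 2 removed the calls of ARG4 and CPA1, leaving out CRN with KOH replicate 1 those of ARG1 and CAR1, leaving out CRN/PPN2 with KOH replicate 2 that of ARG4, and leaving out CRN/PPN2 with KOH replicate 1 that of CAR1.

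The difference of the KOH effect, CRN/PPN2 minus CRN, had both signs among the biosynthetic genes. It met the threshold as higher in 3 of 8 genes and lower in 1, beside 22.2% and 17.6% of all genes (39.7% in either direction). CPA1 (0.84, SE 0.20), ARG2 (0.67, SE 0.22) and ARG4 (0.63, SE 0.22) fell less with KOH in CRN/PPN2, and ARG3 fell more (-1.08, SE 0.21). The call for ARG3 held in 15 of 15 alternatives. That for CPA1 was lost only without CRN with KOH replicate 2, and those for ARG4 and ARG2 were lost in 7 and 9 of the 15. The remaining differences were 0.40 (SE 0.18) for ARG5,6, -0.43 (SE 0.19) for ARG8, -0.31 (SE 0.19) for ARG1 and -0.30 (SE 0.29) for CAR1.

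The balance within the pathway differed by library. The 7 biosynthetic genes together held 0.415% and 0.457% of all counts in CRN in YPD (exact 95% binomial intervals 0.409 to 0.421 and 0.451 to 0.463, which cover counting error only). They held 0.107% and 0.113% in CRN with KOH, 0.343% and 0.414% in CRN/PPN2 in YPD, and 0.104% and 0.152% in CRN/PPN2 with KOH. Per coding length, ARG4 stood to ARG3, which acts earlier, at ratios of 0.868 and 0.836 in CRN in YPD, 1.85 and 1.66 in CRN with KOH, 1.11 and 0.946 in CRN/PPN2 in YPD, and 5.56 and 8.58 in CRN/PPN2 with KOH. This ratio was highest in the 2 CRN/PPN2 libraries with KOH. ARG3 to ARG1 had a ratio of 0.497 to 0.641 in the other 6 libraries and had 0.347 and 0.244 in these. Both ratios restate the levels given above and rest on ARG3, which had 54 and 31 counts in these 2 libraries.

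**Figure D3:**
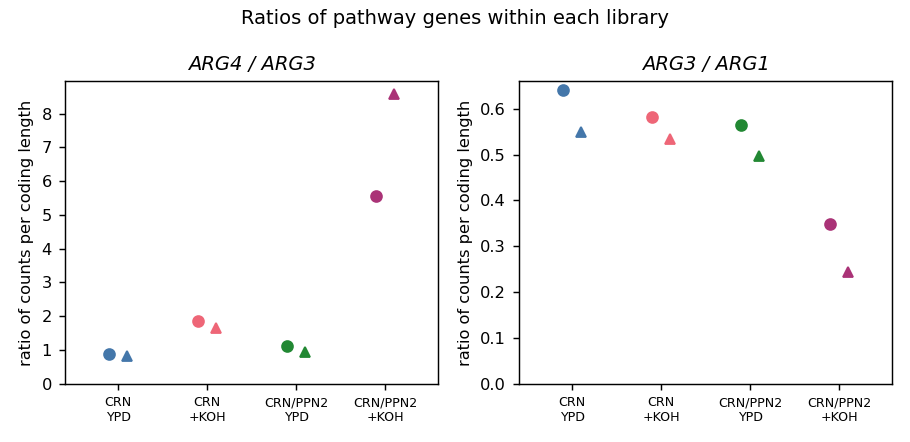
Ratios of counts per coding length (vertical axes from 0) of ARG4 to ARG3 and ARG3 to ARG1 in the 8 libraries, with circles for replicate 1 and triangles for replicate 2. The ratio of ARG4 to ARG3 was highest (5.56 and 8.58) and that of ARG3 to ARG1 lowest (0.347 and 0.244) in CRN/PPN2 with KOH.

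Outside the 9 genes, ARG7 was followed with tests. The leader reading frame of CPA1 belongs to 1 of the 9 genes and is a description without p-values. ARG7 and the lists below were also chosen with earlier results of these data known, so their p-values are not independent support. ARG7, which encodes ornithine acetyltransferase, fell with KOH in CRN (-1.35, SE 0.13, adjusted p = 3.82e-07, quasi-likelihood test of edgeR) and in CRN/PPN2 (-1.10, SE 0.14, adjusted p = 3.84e-06, edgeR). ARG7 did not pass the test of the difference of the KOH effect (0.25, SE 0.19, adjusted p = 0.304, edgeR). YOR302W, a short reading frame that encodes the leader peptide of CPA1, had 26 and 41 counts in CRN with KOH and 22 and 15 in CRN/PPN2 with KOH. Its log2 fold changes with KOH were -1.82 (SE 0.20) in CRN and -0.79 (SE 0.25) in CRN/PPN2, both past the threshold. The first call was lost after thinning to the smallest library and the second in 4 of 16 alternatives. Among these 4 were the fits without CRN/PPN2 in YPD replicate 2 or CRN/PPN2 with KOH replicate 1.

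The RNA levels of 6 regulator genes were read beside those of the 7 biosynthetic genes. They do not measure the amount or activity of the regulator proteins, Gcn4 among them, which was not tested. In CRN with KOH, 0 of the 6 passed edgeR's test and 0 DESeq2 (1, ARG82, had an unadjusted p under 0.05), with log2 fold changes from -0.22 (GCN4) to 0.47 (ARG82). Of all genes, 15.1% passed edgeR's test there, so nothing is read from the count of 0. In CRN/PPN2 with KOH, 3 were higher and 1 lower, where 29.2% and 25.5% of all genes were, so the count of 4 of 6 is not set apart from that of all genes (54.7%). ARG82, which encodes an inositol polyphosphate kinase that the repressor complex needs, rose by 1.08 (SE 0.21, adjusted p = 0.00035, edgeR), from 19.2 and 18.8 CPM to 38.6 and 43.9. UME6 rose by 0.55 (SE 0.18, adjusted p = 0.0141, edgeR). GCN4 rose by 0.36 (SE 0.14, adjusted p = 0.0359, edgeR), a call lost in 11 of 16 alternatives, and MCM1 fell by 0.54 (SE 0.21, adjusted p = 0.0374, edgeR). The call for UME6 was lost without CRN/PPN2 in YPD replicate 2 or CRN/PPN2 with KOH replicate 2, and that for MCM1 without either of these or CRN with KOH replicate 1. Between the strains with KOH, MCM1 was lower in CRN/PPN2 (-0.88, SE 0.21, adjusted p = 0.00164, edgeR), with values from -1.36 to -0.63 over 16 alternatives. It was the 1 regulator lower there, and 3 were higher, a count that changed with the processing. Of all genes, 25.9% were lower and 30.8% higher. ARG80 and ARG81 did not pass in any of the 5 comparisons.

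Of the 10 transport genes, 9 were tested, since VBA3 had 0 counts in all 8 libraries. In CRN with KOH, 4 were lower and 1 higher, beside 15.1% of all genes called. In CRN/PPN2 with KOH, 5 were lower and 2 higher, beside 54.7% of all genes called (25.5% lower, 29.2% higher), and nothing is read from that count. CAN1, the arginine permease of the plasma membrane, fell by 0.57 (SE 0.13, adjusted p = 0.0055, edgeR) and 0.45 (SE 0.15, adjusted p = 0.0144, edgeR). ORT1, which exports ornithine from the mitochondrion, fell by 0.68 (SE 0.13, adjusted p = 0.00165, edgeR) and 1.13 (SE 0.17, adjusted p = 2.33e-05, edgeR). RTC2, a vacuolar transporter gene for basic amino acids, went in opposite directions. Its levels were 67.7 and 55.6 CPM in CRN in YPD, 17.3 and 17.8 in CRN with KOH, 63.9 and 42.8 in CRN/PPN2 in YPD, and 139 and 149 in CRN/PPN2 with KOH. It fell by 1.80 in CRN (SE 0.18, adjusted p = 9.85e-07, edgeR) and rose by 1.42 in CRN/PPN2 (SE 0.16, adjusted p = 1.23e-06, edgeR). ALP1, a permease gene for basic amino acids, rose by 2.21 in CRN/PPN2 (SE 0.27, adjusted p = 2.84e-06, edgeR). It also rose by 0.95 in CRN (SE 0.30, adjusted p = 0.043, edgeR), close to the threshold. Its counts in CRN were few, 16 and 26 in YPD and 34 and 42 with KOH. GAP1, the general permease gene, fell by 0.77 in CRN (SE 0.14, adjusted p = 0.000776, edgeR). YPQ1, for another vacuolar transporter, fell by 0.92 in CRN/PPN2 (SE 0.14, adjusted p = 3.88e-05, edgeR). In CRN, the calls for CAN1 and GAP1 were lost without CRN with KOH replicate 2, those for CAN1 and ORT1 without CRN with KOH replicate 1, and that for CAN1 without CRN in YPD replicate 2. In CRN/PPN2, that for CAN1 was lost without replicate 2 of either medium.

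Of 12 genes of linked metabolism, 4 were lower and 0 higher with KOH in CRN (12 of 12 values below 0), beside 15.1% of all genes called. In CRN/PPN2, 6 were lower and 3 higher, beside 54.7% of all genes called, and nothing is read from that count either. PUT1 encodes proline oxidase, on the route by which ornithine carbon reaches glutamate. It had 83.2 and 78.4 CPM in CRN in YPD, 60.1 and 59.0 in CRN with KOH, 152 and 161 in CRN/PPN2 in YPD, and 270.1 and 333 in CRN/PPN2 with KOH. Between the strains, PUT1 was higher in CRN/PPN2 both in YPD (0.95, SE 0.12, adjusted p = 7.72e-05, edgeR) and with KOH (2.33, SE 0.14, adjusted p = 2.15e-10, edgeR). PUT2, which encodes the next enzyme of that route, fell with KOH by 0.69 in CRN (SE 0.13, adjusted p = 0.00111, edgeR) and by 1.40 in CRN/PPN2 (SE 0.15, adjusted p = 5.02e-07, edgeR). GDH1, for the glutamate dehydrogenase that makes glutamate, fell by 0.53 in CRN (SE 0.11, adjusted p = 0.00404, edgeR) and by 0.93 in CRN/PPN2 (SE 0.13, adjusted p = 1.01e-05, edgeR). Its close copy GDH3 rose by 1.42 in CRN/PPN2 (SE 0.26, adjusted p = 0.000188, edgeR), and reads may be split between these copies. In CRN, the calls for PUT2 and GDH1 were lost without CRN with KOH replicate 2, and that for GDH1 also without CRN with KOH replicate 1 or either CRN library in YPD.

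The fall with KOH was not confined to arginine genes. The 30 genes followed for other amino acids were chosen with earlier results of these data known. They are a part of such genes (LEU1, for example, is not among them), so their counts do not measure the whole class. Of 30 genes for the synthesis of other amino acids, 26 were lower and 0 higher in CRN with KOH (median log2 fold change -0.69), and 27 were lower and 0 higher in CRN/PPN2 (median -0.79), with 30 of 30 values below 0 in each. Of all genes, 7.61% and 25.5% were lower. The medians of the 7 biosynthetic genes were -2.04 and -2.00 in these comparisons. HIS4, of histidine synthesis, fell most in both, by 1.56 (SE 0.13, adjusted p = 8.14e-08, edgeR) and 1.71 (SE 0.13, adjusted p = 1e-08, edgeR). In CRN the count of 26 went down to 14 without CRN with KOH replicate 2. TGACTC was present in 21 of these 30 genes in the shorter promoter window, beside 4 of the 7 biosynthetic genes. In the 500 bases before the start codon it was present in 23 of the 30, beside 7 of 7.

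**Figure D4:**
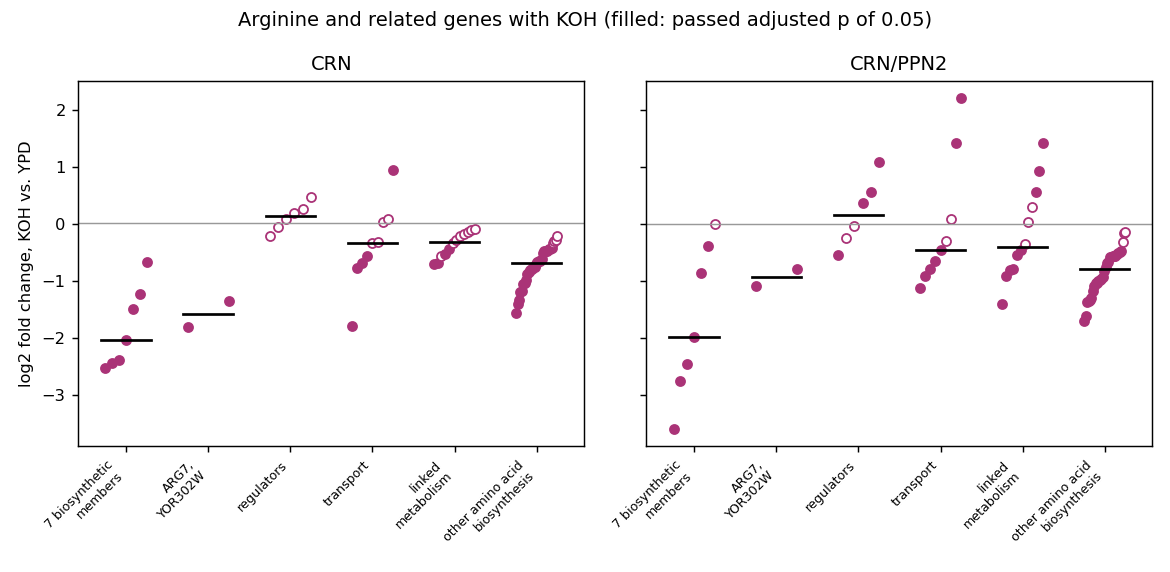
Log2 fold changes with KOH (vertical axis) in CRN (left) and CRN/PPN2 (right) for 6 lists of genes, with filled points for an adjusted p under 0.05, black lines for list medians and a grey line for the median of all genes tested. The median of the 7 biosynthetic genes was -2.04 and -2.00, below that of the 30 genes of other amino acid synthesis (-0.69 and -0.79).

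Across the 8 libraries, the genes most like the mean of the 7 biosynthetic genes by Pearson's r of log2 CPM were ARG7 (0.991), VTC5 (0.990), LYS2 (0.989), LEU1 (0.985) and TMT1 (0.976). VTC5 encodes a subunit of the vacuolar polyphosphate polymerase complex, and LYS2 and LEU1 enzymes of lysine and leucine synthesis. For CAR1 they were ROK1 (0.982), ENA1 (0.973), FUN30 (0.949), KTI12 (0.947) and FIT2 (0.946). ENA1 encodes a plasma membrane sodium pump. Its levels were 35.0 and 31.6 CPM in CRN in YPD, 58.5 and 60.5 in CRN with KOH, 25.5 and 24.1 in CRN/PPN2 in YPD, and 25.3 and 41.5 in CRN/PPN2 with KOH. Between the 7 biosynthetic genes, r ranged from 0.515 to 0.995 in 21 pairs. The 8 libraries share 4 groups, 2 batches and differences in depth, so these values describe the libraries only.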

How the data were processed

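Poly(A) RNA of 8 samples (4 groups, 2 replicates each) was sequenced with a strand-marking kit. The authors mapped reads with STAR 2.7.6a (submitters' processing notes) to R64 and deposited whole, unnormalized counts per gene. Which strand column was kept is not given in the sources used here. All columns were mapped to samples (0 unmapped). Genes that reached 10 CPM in 2 or more of the 8 libraries (5430) were tested in R 4.3.3 with edgeR 4.0.16 (TMM, quasi-likelihood test, Benjamini-Hochberg over all genes tested, threshold 0.05), with the replicate number as a block. By the study's methods, libraries of 1 number were prepared and sequenced as 1 batch, and deviations of same-numbered libraries correlated at 0.095 to 0.484 over 6 pairs of groups. SE is the absolute log2 fold change over the root of F. A single count equals 0.633 and 1.19 scaled CPM in CRN/PPN2 with KOH and 0.196 to 0.266 elsewhere. Members and lists were chosen with earlier results of these data known. All members and list genes could be named, of other amino acid synthesis only the largest rise and fall, and the 5 genes most like the biosynthetic mean and CAR1. A listed gene of the pathway is not reported here. PPN2 was matched by its systematic name. Alternatives used DESeq2 1.42.0 and sva 3.50.0 (ComBat-seq, with no block), other factors, no filter, thinning, other blocks and fewer libraries.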

Additional observations from a re-analysis of the deposited data

Results flagged for a closer look

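The KOH effect differed between the strains for 14 listed genes outside the 9 arginine genes. The test was of the difference itself (edgeR's quasi-likelihood test, CRN/PPN2 minus CRN, on the log2 scale). The 14 come from the lists of the pathway, regulators (6 tested), transport (9 tested) and linked metabolism (12 tested). The strain markers and the 30 genes of other amino acid synthesis (4 higher, 10 lower) were left out of this count. The leader reading frame YOR302W, which belongs to CPA1 and is not independent of it, had a difference of 1.03. That call was lost in 9 of 15 alternatives. The regulators GCN4 and MCM1 had 0.58 and -0.73, each lost in 8. Of the transport genes, RTC2 had 3.22 and GAP1 0.85, lost in 0, ALP1 1.27 and YPQ2 -0.82, each lost in 7, and YPQ1 -0.59 and VBA1 -0.73, each lost in 4. Of linked metabolism, PUT1 had 1.38, lost in 0, GDH3 1.55, lost in 1, DUR3 1.13 and PUT2 -0.71, each lost in 2, and SPE1 -0.70, lost in 4. For the 9 arginine genes, which were selected with this comparison in view, the values are a description and support nothing. Those past the same threshold were 0.67 for ARG2, -1.08 for ARG3, 0.63 for ARG4 and 0.84 for CPA1. All these values use the CRN/PPN2 libraries with KOH. Of all genes tested, 39.7% met the same threshold, so nothing is read from the count of 14.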

How the results depend on the processing

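No log2 fold change that had met the threshold changed sign under any alternative run. For CRN/PPN2 vs. CRN in YPD, the number of the 8 genes called, 2, became 1 with no filter, 1 with DESeq2, 4 with ComBat-seq counts and no block together, 0 after thinning, 4 in the 4 libraries alone and 5 without both CRN/PPN2 libraries with KOH, and 0 to 5 without single libraries. The percent of all genes called, 6.5, became 10.3, 1.86, 13.6 and 15 with ComBat-seq counts and no block together, thinning, 4 libraries and without both of those libraries, and 1.8 to 15 without single libraries. For KOH in CRN, 15.1% became 9.76% with DESeq2, 5.99% after thinning, 31.7% in 4 libraries and 26.1% without both CRN/PPN2 libraries with KOH, and 3.76% to 26% without single libraries. For the difference of the KOH effect, 4 genes called became 1 to 4 without single libraries, and 39.7% became 22.9% after thinning. With no replicate block, the genes called in YPD between the strains became 0 (2.43% of all genes), the percent for KOH in CRN 6.67, and the genes called for the difference 2. Upper quartile factors moved the median of all genes for KOH in CRN/PPN2 to -0.108. The causes were not tested. The 2 CRN/PPN2 libraries with KOH limit what low levels such as ARG3, CAR1 and CAR2 can show.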
